A study of Mus musculus with 4 samples.

Results

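The transcriptome of scratch-wounded MLE-12 cells labelled Lingo1 KO was compared with that of scratch-wounded wild-type cells. MLE-12 is an immortalised mouse alveolar epithelial line, and a scratch through its monolayer leaves a gap that the cells at the edge close by spreading, migrating and dividing. Genes entered the comparison if they reached 1 CPM (CPM is a gene's share of its library's counts, scaled to a common total) in either scratched library, which kept 12135 of the 46078 genes in the count table, 11480 of them protein coding. RNA was taken 24 hours after the wound and sequenced as stranded mRNA libraries, a method that captures poly(A) tails, beside unscratched cells of both genotypes, with 1 library for each of the 4 conditions. The columns marked N were read as the unscratched cells, the only other condition in the labels. The genes nearest the 1 CPM line were Esam and Gda, just inside at 1.00 and 1.00 CPM in their higher scratched library, and Prtg and Tnfsf10, just outside at 0.993 and 0.993 CPM. The labels give no other treatment, and they do not say how the knockout was made, whether it is 1 clone, or how many cultures went into a library.

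The scratched pair held 27907279 counts in wild type and 48333801 in the knockout, 1.73 times as many, and the unscratched pair 26903429 and 29533746. With 1 library per condition there is no replicate spread, so no p-value was computed and every fold describes these libraries. A gene passed the 2-fold rule if its log2 difference (on counts plus a prior count of 2) reached that fold, and the 25% rule if the higher library stood at least 25% above the lower one, where the exact 95% interval of its count ratio also excluded 1. Intervals are given in parentheses and cover counting error only. Where 4 CPM values follow each other, their order is wild type unscratched, wild type scratched, knockout unscratched and knockout scratched.

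LINGO1 is a leucine-rich repeat membrane protein, best known as a partner of the Nogo receptor that restrains myelination and axon growth, and it can bind receptors of the EGFR family. In a lung epithelium, wound closure draws on matrix assembly, integrin adhesion, growth factor signalling and the shift of alveolar type 2 cells, the surfactant producers, towards the flat type 1 state. Lingo1 itself (chromosome 9, 56618475 to 56796468, mm10, read from the minus strand) stood at 46.4, 42.9, 41.2 and 41.4 CPM. After the scratch its count ratio of knockout to wild type was 0.966 (0.899 to 1.04), so its mRNA level does not tell the 2 genotypes apart. Among the tested genes within 1 Mb of it, the kinase-like scaffold Peak1 (log2 0.41) and the mannosidase Man2c1 (0.46) were higher in the knockout by the 25% rule and Scaper (-0.34) was lower, and none reached 2-fold. Over all tested genes 12.7% passed the 25% rule in either direction, so these calls are a description. Scaper no longer passed when the scratched knockout counts were thinned to the wild-type depth (-0.30).

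Markers of both alveolar types were counted in the scratched cells of either genotype, but not every member of either list reached 1 CPM. In scratched wild type and knockout the type 2 list summed to 568 and 705 CPM and the type 1 list to 3719 and 3503 CPM. The fibroblast and mesenchymal list, described below, summed to 3944 and 3896 CPM, so these sums do not single out an alveolar identity. Of 14 type 2 markers, 9 were tested, and the lung regulator Nkx2-1 stood at 128 and 132 CPM in the scratched wild-type and knockout cells and the lipid transporter Abca3 at 165 and 176 CPM, but surfactant proteins Sftpa1 and Sftpd had 0 counts in all 4 libraries. Of 10 type 1 markers, 9 were tested, among them Ager (457 and 397 CPM) and caveolin 1 (Cav1, 1863 and 1756 CPM). Of 7 general epithelial markers, 4 were tested and 2 had 0 counts in both scratched libraries. E-cadherin (Cdh1, 859 and 775 CPM) and keratin 19 (Krt19, 1251 and 1233 CPM) were present, while keratin 18 (Krt18) stayed at 0.287 and 0.209 CPM. The leukocyte gene Ptprc and the endothelial gene Cdh5 had 0 counts in every library. Of the leukocyte, endothelial, mast cell and neuronal lists 1 of 7, 1 of 6, 3 of 6 and 2 of 6 genes were tested. In scratched wild type and knockout the summed leukocyte list stood at 2.04 and 1.69 CPM and the mast cell list at 5.84 and 51.2 CPM. The endothelial list summed to 208 and 180 CPM and the neuronal list to 331 and 210 CPM, so members of these 2 were counted well above the floor. Among them was the neuronal gene Map2 (314 and 188 CPM, log2 -0.74).

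The libraries differed in RNA that carries no long poly(A) tail, and that difference ran in opposite directions in the scratched and the unscratched pair. Ribosomal RNA made up 0.603%, 0.121%, 0.193% and 0.700% of the counts, and together with mitochondrial ribosomal and transfer RNA, small RNA classes and replication-dependent histone mRNA the share was 0.854%, 0.229%, 0.335% and 0.955%. The wild-type scratched library thus held the least and the knockout scratched library the most. Poly(A) selection normally removes these RNAs, and whether selection or the cells set their level cannot be told apart with 1 library per condition. Counts of genes are given below with and without them.

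**Figure D1:**
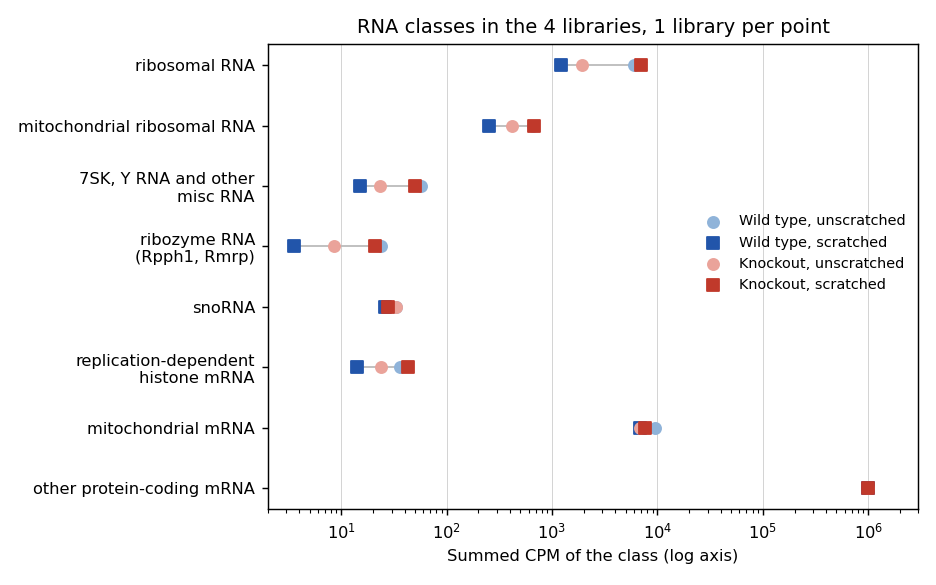
Summed CPM of RNA classes (log axis), 1 point per library. Ribosomal RNA ran from 1209 CPM in wild-type scratched to 7062 CPM in knockout scratched cells, and wild-type scratched cells were also lowest in histone mRNA, ribozyme RNA and mitochondrial ribosomal RNA, whereas snoRNA lay between 25.9 and 33.0 CPM in all 4 libraries.

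Most genes stood at nearly the same level in the scratched knockout and wild-type cells. The median log2 difference was 0.0009, the median size of a difference was 1.09-fold, and 10297 genes (84.9%) lay within 25%. By the 2-fold rule 166 genes (1.37% of those tested) were higher in the knockout and 50 (0.412%) were lower, 1.78% in all. By the 25% rule 871 (7.18%) were higher and 667 (5.5%) lower. Without the poorly polyadenylated and histone genes the 2-fold counts were 145 and 50. The 145 still held long non-coding RNA genes that abut or overlap the ribosomal RNA gene CT010467.1. They also held Lars2, described below, whose order over the 4 libraries was that of ribosomal RNA.

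Large differences sat mainly among weakly expressed genes. The share passing the 2-fold rule in either direction was 7.89% of 1750 genes under 5 CPM, 2.09% of 2396 genes from 5 to 20 CPM, 0.353% of 5099 genes from 20 to 100 CPM and 0.346% of 2890 genes at 100 CPM or more. Only 40 of the 166 higher and 9 of the 50 lower genes reached 10 CPM in either scratched library. With a minimum of 5 CPM in place of 1 CPM, 66 genes were higher and 12 lower.

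Most of the genes higher after the scratch were higher without it too. The 2 pairs share no library. Of the 166 higher genes, 104 (62.7%) passed the 2-fold rule in the same direction in the unscratched pair, which is 70.3% of the 148 genes higher there (1.22% of those tested). Of the 50 lower genes, 26 (52.0%) did, which is 32.1% of the 81 genes lower without a scratch (0.667%). By the 25% rule 8.88% of the tested genes were higher and 7.28% lower in the unscratched pair. Over all tested genes both knockout libraries lay above both wild-type libraries for 28.7% and below both for 27.9%, so for a gene chosen on a difference after the scratch that order is a description. A further 17 genes, all higher after the scratch, were at least 2-fold lower in the unscratched knockout, and these are described with the ribosomal RNA group.

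**Figure D2:**
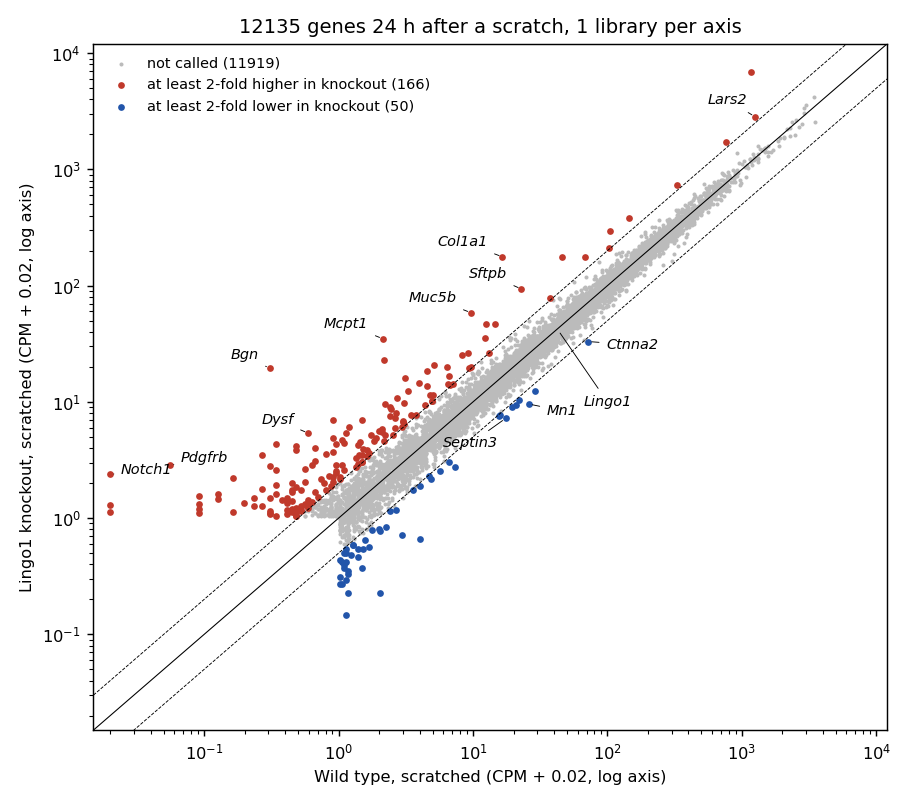
CPM of each tested gene in scratched wild-type (x) and scratched knockout cells (y), both plus 0.02 on log axes. The solid line marks equal levels and the dashed lines 2-fold. The 166 higher genes (red) include Bgn, Mcpt1 and Col1a1, 5 of the 50 lower genes (blue) reach 4-fold, and Lingo1 lies on the line of equal levels.

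Matrix genes were among the leading higher genes. Biglycan (Bgn, chromosome X, 73483602 to 73495933), a small proteoglycan that binds collagen fibrils, was counted at 0.295, 0.287, 22 and 19.4 CPM. Col1a1 (chromosome 11, 94936224 to 94953042) encodes the main fibrillar collagen chain of bone and scar and was at 21.3, 16.5, 197 and 177 CPM, while Col1a2, which encodes the partner chain of the usual type I trimer, had 0 counts in both scratched libraries. Emilin1, a glycoprotein of elastic fibres, stood at 1.48, 1.18, 6.05 and 6.01 CPM, and Spp1 (osteopontin), a secreted adhesion protein, at 0.148, 0.179, 1.22 and 1.34 CPM. In these genes, chosen as higher after the scratch, the knockout libraries lay above the wild-type libraries without the scratch as well, and after the scratch the ratios were 67.7-fold (34.2 to 157), 10.7-fold (9.75 to 11.8), 5.08-fold (3.54 to 7.53) and 7.45-fold (3.03 to 23.7).

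Airway mucins and surfactant genes were also among the higher genes. The type 2 marker list as a whole numbered 4 higher and 1 lower of 9 tested by the 25% rule, against 7.18% higher and 5.5% lower of all genes, and the type 1 list 0 higher and 1 lower of 9 tested, with Pdpn at log2 -0.34. The mucin list had 3 tested genes, 2 of them higher, and the third, the abundant adhesion molecule Mcam (219.8, 259, 129 and 150.0 CPM), lower. The gel-forming mucin Muc5b (chromosome 7, 141839070 to 141873084) was at 10.2, 9.64, 77.1 and 58.5 CPM and its neighbour Muc5ac at 1.03, 0.932, 5.34 and 4.28 CPM. Surfactant protein B (Sftpb, chromosome 6, 72304610 to 72314371), which spreads the surfactant film, was at 25.4, 22.9, 107 and 93.5 CPM. Surfactant protein C (Sftpc), the hydrophobic peptide most specific to type 2 cells, stood at 5.68, 6.42, 20.6 and 19.8 CPM, and the transcription factor Cebpa, which acts in type 2 cells, at 1.73, 1.08, 4.73 and 4.41 CPM. The unscratched knockout was above both wild-type libraries in each, and after the scratch Muc5b was 6.06-fold (5.35 to 6.90) and Sftpb 4.09-fold (3.76 to 4.45) higher in the knockout. The protease Ctsh, which trims the surfactant precursors, was 1.53-fold (1.44 to 1.62) higher, whereas another such protease, Napsa, was lower at log2 -0.67.

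Several higher genes are best known from other tissues. Mcpt1 (chromosome 14, 56017971 to 56020384) encodes a chymase of mast cells and stood at 2.32, 2.11, 32.8 and 34.9 CPM, and its neighbour Mcpt2 at 0.922, 0.896, 4.87 and 4.89 CPM. The counts of these close paralogs may be split or shared by the counting. Kit, the stem cell factor receptor of mast and progenitor cells, was at 2.69, 2.69, 8.65 and 10.7 CPM. The other mast cell genes Cpa3 and Tpsb2 had 0 counts in every library. Tnnt2, cardiac troponin T, was at 11.1, 12.2, 40.5 and 35.2 CPM, a ratio of 2.88-fold (2.56 to 3.24) after the scratch.

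Signalling and transport genes were also among those at least 2-fold higher. Plcb1, a phospholipase C that acts below G protein-coupled receptors, was at 4.91, 5.09, 21.1 and 20.9 CPM, and Dusp4, a phosphatase that switches off ERK, at 3.62, 3.94, 13.8 and 14.6 CPM. Nmnat2, an NAD-synthesising enzyme that keeps axons alive, stood at 4.65, 4.55, 22.9 and 18.5 CPM. These 3 were 4.11-fold (3.44 to 4.93), 3.71-fold (3.03 to 4.58) and 4.05-fold (3.36 to 4.92) higher after the scratch. The adhesion receptor Adgrf5, which limits surfactant in the lung, was 3.06-fold (2.65 to 3.53) higher, the actin regulator Eps8 3.03-fold (2.50 to 3.70), the proton pump subunit Atp6v0a4 2.88-fold (2.52 to 3.31) and the chromatin gene Bahcc1 3.80-fold (3.04 to 4.79). Dysferlin (Dysf), which patches torn plasma membranes, stood at 0.480, 0.574, 5.20 and 5.37 CPM, and Abca1, which exports cholesterol, at 3.10, 2.19, 11.3 and 9.50 CPM.

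A few genes were almost silent in wild type and counted in the knockout. Notch1, a receptor for cell-to-cell signals, had 0 counts in both wild-type libraries and 79 and 113 in the unscratched and scratched knockout. Set against a floor of 3 counts in the wild-type scratched library, that is at least 21.9-fold higher. Pdgfrb, a growth factor receptor typical of mesenchymal cells, had 0 and 1 counts in wild type and 67 and 135 in the knockout, a ratio of 78.6 (13.9 to 3128). The homeobox gene Hoxd8 (0 against 61 counts after the scratch, at least 11.8-fold) and the neurotrophic factor receptor Gfra2 (0 against 53, at least 10.3-fold) were of the same kind. Sfrp1, a secreted Wnt inhibitor, had 2 and 74 counts after the scratch, a ratio of 21.5 (5.76 to 181). Of the other patterning genes Zfhx4 and Alx4 had 2 counts each in scratched wild type and 63 and 56 in the knockout.

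The 9 lower genes that reached 10 CPM differed by smaller folds than the leading higher genes, 2.04-fold to 2.71-fold. Mn1 (chromosome 5, 111417362 to 111457033), a transcriptional coregulator, was at 31.5, 26, 10.4 and 9.56 CPM. Septin3, a septin found mainly in neurons, stood at 17.8, 17.4, 6.18 and 7.18 CPM, and Dact2, a modulator of Wnt and TGF-beta signals, at 30.7, 29, 12.8 and 12.4 CPM. After the scratch these were 2.71-fold (2.41 to 3.06), 2.43-fold (2.11 to 2.79) and 2.33-fold (2.09 to 2.60) lower. Alpha-N-catenin (Ctnna2, chromosome 6, 76881637 to 77979699), which links cadherins to actin mainly in neurons, was the most highly counted at 69.2, 71.9, 34.5 and 33 CPM, 2.18-fold (2.04 to 2.33) lower after the scratch.

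Dystrophin (Dmd), which ties actin to the matrix, was at 21, 22, 10.1 and 10.4 CPM, and the membrane protein Popdc3 at 17.7, 20.7, 9.26 and 9.44 CPM. Cytip, which binds cytohesins in leukocytes, was 2.16-fold (1.90 to 2.46) lower, the synaptic vesicle gene Sv2c 2.06-fold (1.79 to 2.37) and the Rac activator Dock3 2.04-fold (1.77 to 2.35). For Dmd, Sv2c and Dock3 the authors' RPKM values put the log2 difference at -0.99, -0.96 and -0.95, just inside 2-fold. In these genes, chosen as lower after the scratch, the unscratched knockout too lay below both wild-type libraries. Among genes under 10 CPM, the kinesin-related gene Kif26a was lower at 8.52, 7.35, 2.50 and 2.76 CPM.

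**Figure D3:**
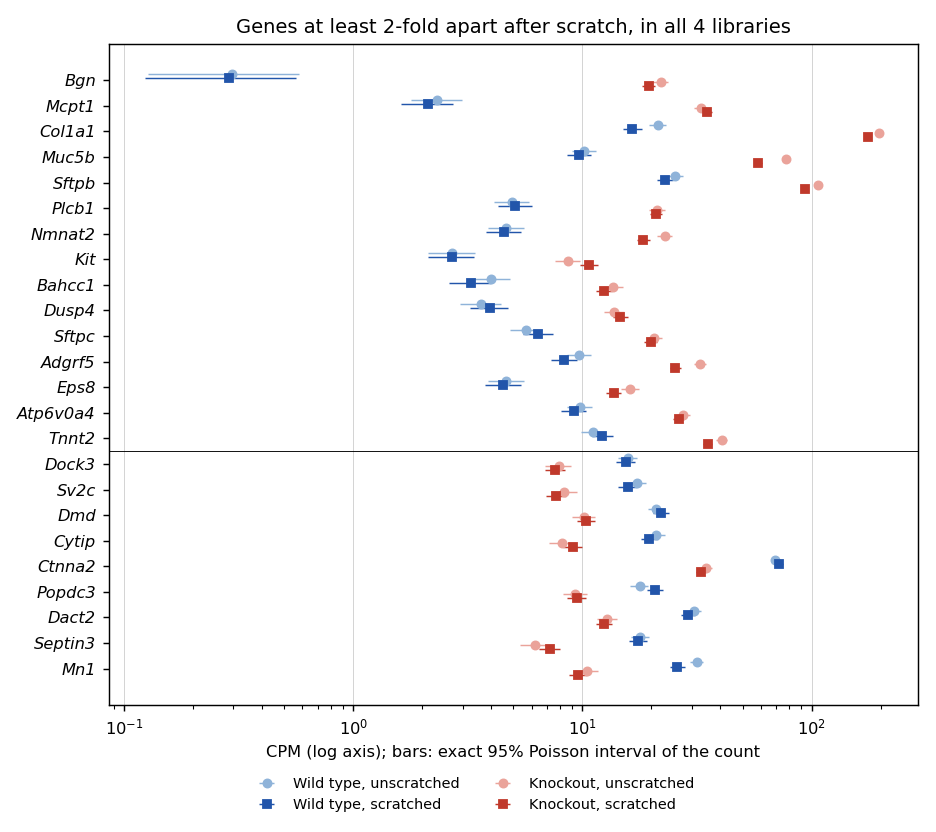
CPM (log axis) in all 4 libraries of 15 of the 20 named genes with the largest higher values after the scratch, those also at least 2-fold higher without it, and of the 9 lower genes, all reaching 10 CPM. Bars are exact 95% Poisson intervals of the counts. Circles are unscratched and squares scratched cells, in red for knockout and blue for wild type. The gap is widest for Bgn, and the genes were chosen for their gap, so the separation is a description.

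Collagen chains leaned higher, and other matrix families were mixed. By the 25% rule the collagen chains numbered 8 higher and 1 lower of 16 tested, with a median log2 of 0.36, against 7.18% higher, 5.5% lower and a median of 0.0009 over all tested genes. The network collagen Col8a1 (2.12-fold, 1.98 to 2.28) and the filament collagen Col6a1 (2.05-fold, 1.96 to 2.14) passed the 2-fold rule, Col18a1 and Col4a6 stood at log2 0.90 and 0.92, and Col20a1 was lower (-0.34). The 8 tested laminin chains, which build the basement membrane, were 4 higher and 1 lower, with Lamb1 at 0.68, Lamb3 at 0.53, Lama5 at 0.47 and Lama3 at -0.35.

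Glycoproteins and proteoglycans of the matrix numbered 11 higher and 5 lower of 25 tested, against 7.18% higher and 5.5% lower of all genes. Beside Bgn and Emilin1, fibrillin 1 (Fbn1, log2 0.52) and matrilin 2 (Matn2, 0.84) were higher. Fibronectin (Fn1, 389, 391, 302 and 276 CPM), the provisional matrix of wounds, was lower after the scratch at log2 -0.50, as were nephronectin (Npnt, -0.63), agrin (Agrn, -0.39) and fibulin 1 (Fbln1, -0.35). Proteases and their inhibitors numbered 5 higher and 3 lower of 25 tested. The plasminogen activator Plat (-0.60), gelatinase Mmp2 (-0.61) and collagenase Mmp13 (-0.55) were the lower ones, and Ctsh, the aggrecan-cleaving Adamts4 (1.55), Adamts9 (0.36) and the inhibitor Spint1 (0.72) were among the higher. Collagen processing was near the background, with 2 higher and 1 lower of 17 tested, among them the prolyl hydroxylase P3h3 (0.69) and the procollagen protease Bmp1 (0.41) higher.

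Mesenchymal markers were mixed. Of 13 genes in the fibroblast and mesenchymal list, 8 were tested, 5 were higher and 1 lower, against 7.18% higher and 5.5% lower of all genes. Bgn and Pdgfrb were tested only because they reached 1 CPM in the knockout, with 0.287 and 0.0358 CPM in scratched wild type. Beside Bgn, Col1a1 and Pdgfrb, vimentin (Vim) was at 718, 712, 944 and 935 CPM and log2 0.39. Decorin (Dcn), the most highly counted of them, stood at 2846, 2819, 2710.2 and 2481 CPM, log2 -0.18 after the scratch. Col3a1 and Acta2 stayed under 0.1 CPM in both scratched libraries. The summed level of the list was 3944 CPM in scratched wild type and 3896 CPM in the scratched knockout, and its median of 0.56 was 0.39 among genes of at least 5 CPM and 0.22 with no minimum.

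Adhesion and junction genes differed member by member. The background for these lists was 7.18% higher and 5.5% lower of all genes, with a median log2 of 0.0009. The integrin chains Itga6 (0.78), Itga9 (0.76) and Itga3 (0.47), epithelial receptors for laminin or other matrix proteins, were the 3 higher of 12 tested, and none was lower. The hyaluronan receptor Cd44 (0.56), talin 2 (Tln2, 0.84) and the adaptor Tns4 (1.21) were higher and the kinase Ptk2b (-0.35) lower among 23 focal adhesion genes. Adherens junction and desmosome genes numbered 1 higher and 5 lower of 19 tested, and 16 of the 19 lay below 0. Ctnna2 led them, followed by the nectins Nectin1 (-0.71) and Nectin3 (-0.42) and N-cadherin (Cdh2, -0.33), while the plakophilin Pkp1 (0.38) was higher. Of 14 tight junction genes 11 lay below 0, with Marveld3 lower (-0.68) and cingulin-like Cgnl1 (0.61) and occludin (Ocln, 0.34) higher.

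Semaphorin and plexin genes numbered 7 higher and 4 lower of 26 tested, against 7.18% and 5.5% of all genes, with 14 above and 12 below 0 and a median of 0.043. Semaphorins are secreted or membrane-bound cues that repel or attract migrating cells, and plexins and neuropilins receive them. The secreted Sema3d was at 307, 303, 162 and 163 CPM and Sema3e at 63.3, 67.3, 30.6 and 33.9 CPM, both lower in the knockout, as were the co-receptor Nrp2 (log2 -0.45) and the membrane-bound Sema4c (-0.41). The plexins Plxna1 (0.51), Plxna2 (0.49), Plxna3 (0.39), Plxna4 (0.44), Plxnb3 (0.61) and Plxnc1 (0.50) were all higher by the 25% rule, as was the membrane-bound Sema4a (3.05-fold, 2.37 to 3.96). In the group named for LINGO and the Nogo receptor, 2 of 9 tested genes passed: the endocytic receptor Lrp1 was higher (269, 191, 376 and 280.1 CPM, log2 0.55) and Lingo4 lower (-0.65). The Nogo ligand Rtn4 stood at 160.4 and 173 CPM in the scratched pair.

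The EGFR receptors differed little, while several ERK feedback genes passed the 25% rule. Of 19 EGFR family genes none was higher, and the ligand Nrg1 (-0.44) and the feedback gene Socs3 (-0.37) were lower, against 7.18% higher and 5.5% lower of all genes. The receptors Egfr (9.50 and 9.92 CPM), Erbb2 (215 and 209 CPM) and Erbb3 (70.04 and 70.3 CPM) stood near equal levels in scratched wild-type and knockout cells. Among ERK feedback genes, Dusp4, Etv4 (0.76), Dusp7 (0.63) and Spry4 (0.75) were higher and Spry1 (-0.46) and Dusp10 (-0.40) lower, so 6 of 20 tested genes passed, against 12.7% of all genes.

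Wnt genes numbered 9 higher and 4 lower of 28 tested, against 7.18% higher and 5.5% lower of all genes, which is also the background for the lists that follow. The secreted inhibitors Sfrp1 and Sfrp2 (2.04-fold, 1.64 to 2.56) and the stem cell receptor Lgr5 (1.22) were higher, and Dact2, the ligand Wnt9a (-0.50) and the receptor-degrading ligase Rnf43 (-0.47) lower. With the authors' RPKM values Sfrp2 stood at log2 0.987, just inside 2-fold. TGF-beta and BMP genes numbered 6 higher and 3 lower of 31 tested, with Inhba, which encodes an activin subunit, at log2 0.44 and the TGF-beta binding proteoglycan Tgfbr3 at -0.61. YAP targets numbered 4 higher and 2 lower of 22 tested: the receptor kinase Axl (126, 115, 203 and 186 CPM) was among the higher and Igfbp3 (16.8, 16.2, 8.04 and 8.25 CPM) among the lower, with a list median of 0.037. Immediate early genes, induced within minutes of a stimulus, had a median of -0.015 after the scratch and -0.21 without it, with Myc at 27, 38.1, 48.3 and 57.5 CPM and Jun at 200.3, 157, 116 and 120.1 CPM.

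**Figure D4:**
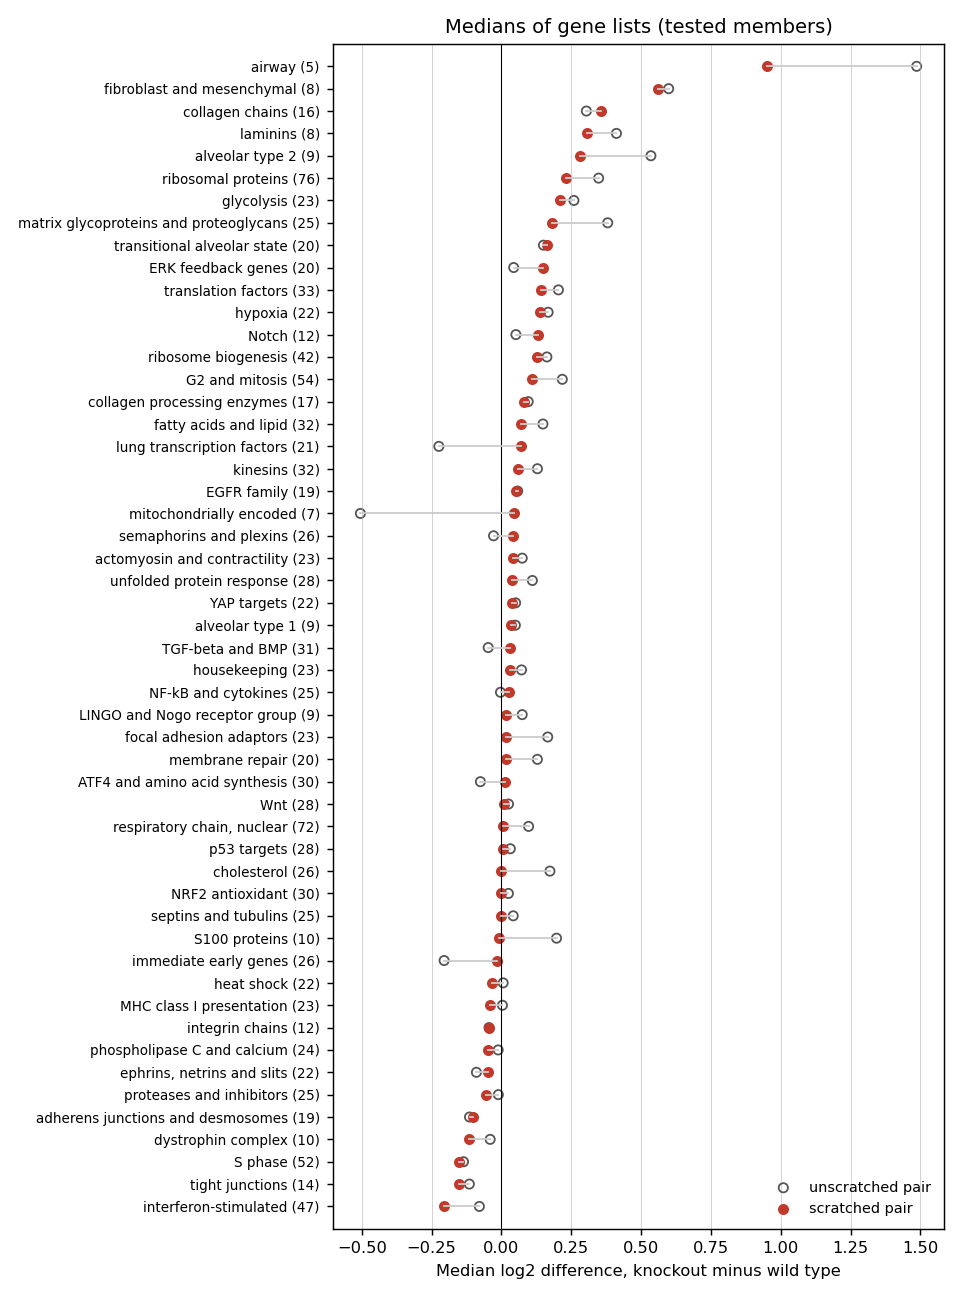
Median log2 difference (knockout minus wild type) of the tested members of each gene list with at least 5 tested genes, in the scratched pair (red) and the unscratched pair (open), without replication-dependent histones. Numbers of tested genes are in parentheses. In the scratched pair airway, mesenchymal and collagen lists lie at the upper end and interferon-stimulated, tight junction and S phase lists at the lower end, while in the unscratched pair the mitochondrially encoded list (-0.51) is the lowest.

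The transitional state, lung transcription factor and NF-kB lists each held more higher than lower members. Of 20 tested genes of the transitional state between type 2 and type 1 cells, 5 were higher and 0 lower, among them keratin 8 (Krt8, 247, 258, 328 and 331 CPM) and Myc, with a median of 0.16. Of 21 lung transcription factors, 5 were higher and 2 lower, with the endoderm factor Gata5 at 1.14, 1.11, 5.64 and 5.37 CPM, and the median was 0.069 after the scratch and -0.22 without it. NF-kB and cytokine genes numbered 7 higher and 2 lower of 25 tested, with interleukin 18 (Il18, 3.17, 3.23, 5.17 and 6.12 CPM) and the cytokine Mif (0.70) higher. Ephrin, netrin and slit genes numbered 5 higher and 2 lower of 22 tested, with the netrin Ntn4 higher (0.47) and the ligand Efna1 lower (-0.49).

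Interferon-stimulated genes, the antiviral programme switched on by interferons through STAT and IRF factors, lay mostly below wild type in the scratched knockout. By the 25% rule 14 of 47 tested genes were lower and 1 higher, against 5.5% lower over all genes, and 40 lay below 0. The median was -0.21 after the scratch and -0.079 without it. Among members of at least 5 CPM the median after the scratch was -0.10.

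The guanylate-binding protein Gbp2 was at 15.7, 18.2, 12.4 and 11.6 CPM and the ubiquitin-like modifier Isg15 at 7.27, 8.96, 6.12 and 6.10 CPM. The antiviral gene Ifit3 stood at 2.18, 2.11, 1.45 and 1.40 CPM and the oligoadenylate synthetase-like Oasl1 at 7.42, 8.42, 4.60 and 5.87 CPM. These were chosen from the 14 lower members. The transcription factor Stat2 (-0.35) was lower too, and the 1 higher member was the secreted lectin-binding protein Lgals3bp (49.7, 53.2, 84.7 and 82.7 CPM). The antigen presentation activator Nlrc5 was also lower (-0.63), while the class I presentation list had a median of -0.043.

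The promoters of 3 lower interferon genes are shown because they carry the letters of the interferon-stimulated response element, the site of STAT and IRF complexes. Each line gives the 250 bases before the RefSeq start (GRCm38.p6), 5′ to 3′ on the gene's strand, with GAAA followed after any 2 bases by a second GAAA, on either strand, in capitals.
Gbp2: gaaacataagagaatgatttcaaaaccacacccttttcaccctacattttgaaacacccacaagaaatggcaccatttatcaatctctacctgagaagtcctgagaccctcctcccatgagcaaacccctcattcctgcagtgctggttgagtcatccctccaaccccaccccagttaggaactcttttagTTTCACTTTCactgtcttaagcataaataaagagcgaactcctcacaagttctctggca
Isg15: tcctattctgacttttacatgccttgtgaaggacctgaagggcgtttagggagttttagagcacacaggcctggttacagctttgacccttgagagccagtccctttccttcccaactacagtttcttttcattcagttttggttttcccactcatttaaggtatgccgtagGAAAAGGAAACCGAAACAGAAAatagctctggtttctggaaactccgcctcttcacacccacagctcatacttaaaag
Ifit3: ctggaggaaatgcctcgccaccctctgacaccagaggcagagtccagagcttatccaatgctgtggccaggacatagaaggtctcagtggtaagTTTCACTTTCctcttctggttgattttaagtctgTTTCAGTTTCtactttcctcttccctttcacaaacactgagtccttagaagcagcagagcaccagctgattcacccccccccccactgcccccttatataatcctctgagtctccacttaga

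These lie at chr3:142620413-142620662, plus strand for Gbp2, chr4:156200819-156201068, minus strand for Isg15 and chr19:34583279-34583528, plus strand for Ifit3. The 3 matches of Isg15 overlap each other. Over promoters from 250 bases before to 50 after the start, 20 of 39 interferon genes (51.3%) held this pair of GAAA blocks, against 3.58% of 9465 tested genes with a RefSeq promoter. The 20 genes with a match had a median log2 of -0.27 after the scratch and 7 were lower, and the 19 without one had a median of -0.094, with 4 lower and 1 higher. A match describes letters and is not evidence of binding.

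Glycolytic genes and ribosomal protein genes leaned higher. Glycolysis numbered 9 higher and 1 lower of 23 tested, median 0.21: the glucose transporter Slc2a1 (24.1, 28.5, 37.3 and 43.2 CPM), the first enzyme hexokinase 2 (Hk2, 2.77, 6.67, 10.04 and 14 CPM), the phosphofructokinase Pfkl (40.5, 43.6, 72.6 and 77.7 CPM) and the aldolase Aldoa (218, 241, 358 and 369.7 CPM) were higher, and the regulator Pfkfb2 was lower (-0.36). Of 22 hypoxia genes 6 were higher and 0 lower, among them the oxygen sensor Egln3 (0.61) and Pdk1 (0.41), which diverts pyruvate from mitochondria. The 72 nuclear genes of the respiratory chain had a median of 0.0071, and none passed.

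Of 76 ribosomal protein genes, 75 lay above 0 and 12 passed the 25% rule, with a median of 0.23, a shift of less than 25%. Rps21 was at 235, 227, 305 and 317 CPM and Rplp1 at 406, 438, 561 and 570.1 CPM. Reads of single members are uncertain, since the genome holds many pseudogene copies of them. Translation factors (median 0.14) and ribosome biogenesis genes (0.13) leaned the same way, with the poly(A)-binding protein Pabpc1 (0.51) and nucleophosmin (Npm1, 0.38) higher. Of the widely used reference genes Gapdh (0.36) and Pgk1 (0.38) passed the 25% rule and Actb did not (0.031).

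The unfolded protein response and p53 lists were split, and the NRF2 list had only higher genes among those called. Unfolded protein response genes numbered 3 higher and 3 lower of 28 tested, with Xbp1 higher (0.66) and Dnajb9 (-0.50) and Ddit3 (-0.40) lower. Atf4, the regulator of amino acid synthesis genes, was at 207, 268, 193 and 212 CPM, and the stress gene Nupr1 at 17.1, 26.6, 14 and 16 CPM. NRF2 antioxidant genes numbered 7 higher and 0 lower of 30 tested, among them the peroxiredoxin Prdx6 (0.52), with a list median of -0.0032. p53 targets numbered 3 higher and 5 lower of 28 tested: Cdkn1a (0.60) and Plk2 (0.47) were among the higher and Gadd45a (-0.48), Pmaip1 (-0.42) and Plk3 (-0.43) among the lower. Lipid genes were mostly above 0 (23 of 32), with Elovl6 (0.51) and Fasn (0.35) higher, and the decay-accelerating complement regulator Cd55 was lower (83, 92.7, 52.6 and 53.4 CPM).

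Whole chromosomes differed between the genotypes in the same direction in both pairs. On chromosome 4 the median log2 difference of 780 tested genes was -0.16 after the scratch and -0.16 without it, that is 0.892 and 0.893 times wild type, and 81.5% and 79.0% of its genes lay below 0. By the 25% rule 16.2% of its genes were lower after the scratch, against 5.5% of all genes. In windows of 50 consecutive protein-coding genes, all 15 windows of chromosome 4 had medians from -0.20 to -0.11. On chromosome 16 the median was -0.086 after the scratch and -0.051 without it, and its 7 windows lay below 0 in both pairs. They ran from -0.098 to -0.070 after the scratch and from -0.11 to -0.0075 without it. Most of the former and all of the latter lay within the range of the windows of other chromosomes, given below. Chromosome 14, one of those others, had medians of 0.053 and 0.076, with 38.3% and 35.3% of its genes below 0.

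On the distal part of chromosome 2 the shift was upward. The last 8 of its 18 windows, from 119618298 to 181857461 (mm10), had medians from 0.13 to 0.23 after the scratch and from 0.077 to 0.22 without it. The 401 protein-coding genes there had medians of 0.15 and 0.14, or 1.11 and 1.10 times wild type. The start of this stretch was set after the values were seen. The other 10 windows of chromosome 2 lay between -0.056 and 0.080. All 191 windows of the other chromosomes lay between -0.096 and 0.097 after the scratch, and between -0.17 and 0.18 without it.

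**Figure D5:**
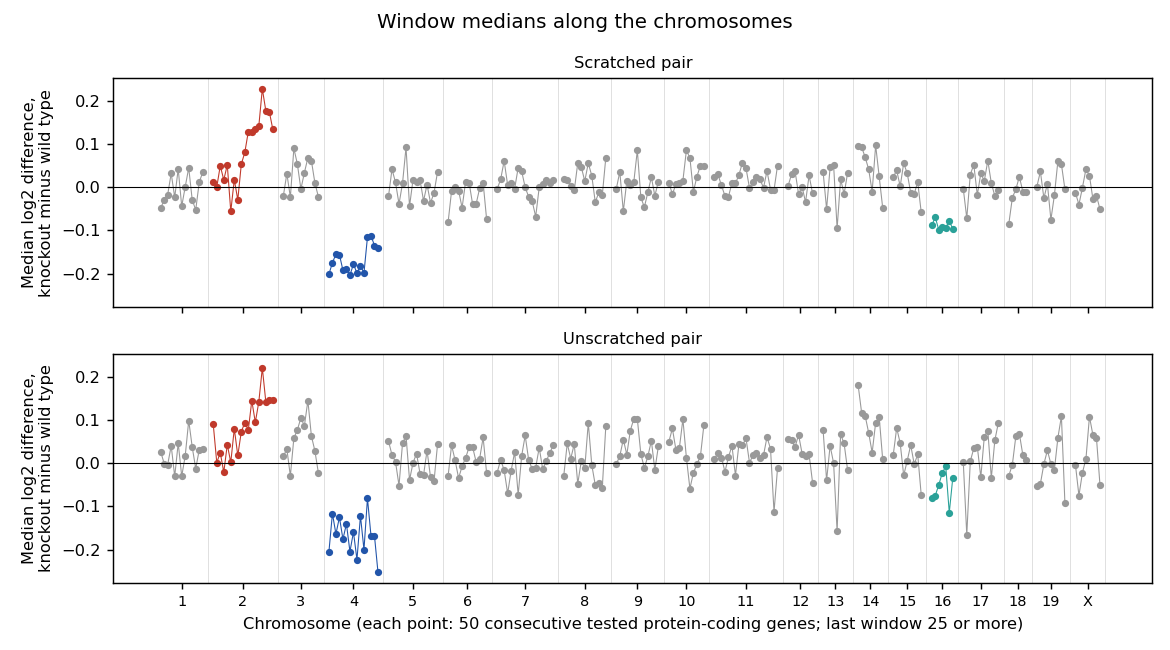
Median log2 difference (knockout minus wild type) of windows of 50 consecutive tested protein-coding genes in chromosome order, for the scratched pair (top) and the unscratched pair (bottom). All windows of chromosome 4 (blue) lie below 0 in both, as do those of chromosome 16 (teal), and the last 8 windows of chromosome 2 (red) lie above 0 in both.

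The chromosome 4 shift was present at every expression level. Its median was -0.11 among 111 genes under 5 CPM, -0.12 among 140 genes from 5 to 20 CPM, -0.18 among 299 genes from 20 to 100 CPM and -0.19 among 230 genes at 100 CPM or more. The genes of the chromosomes other than 2, 4 and 16 had medians of 0.041, 0.014, 0.0064 and 0.0015 in the same ranges. Of the 780 genes, 567 were below 0 in both pairs. Across the 231 windows the scratched and unscratched medians had a Pearson r of 0.80 and a Spearman rho of 0.63, given as a description since neighbouring genes share their chromosome and all windows share the 4 libraries.

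DNA replication genes numbered 0 higher and 4 lower of 52 tested, with a median of -0.15 and 48 of 52 below 0, against 5.5% lower over all genes, a share near that of the list. The 4 lower genes were the activator E2f2, the origin-binding subunit Orc1 and the single-strand binding protein subunit Rpa2, all on chromosome 4, and the chromatin assembly subunit Chaf1b on chromosome 16. Orc1 was at 37.1, 41.4, 30.4 and 30.2 CPM and Chaf1b at 213, 222, 170.0 and 176 CPM. Chaf1b no longer passed when the scratched knockout counts were thinned to the wild-type depth (-0.3208). Without chromosomes 4 and 16 and distal chromosome 2, the median of the remaining 40 genes was -0.14, 37 of them lay below 0 and 0 passed the rule.

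Mitosis genes numbered 6 higher and 0 lower of 54 tested, with a median of 0.11 after the scratch and 0.22 without it, against 7.18% higher over all genes. Of the 6 higher genes, the spindle checkpoint kinase Bub1b, the kinase Aurka, its activator Tpx2 and the ubiquitin-conjugating enzyme Ube2c lie on chromosome 2, and cyclin B1 (Ccnb1) and the centromere histone Cenpa lie elsewhere. Of those on chromosome 2, 3 lie in its distal stretch and 1 lies before it. Aurka stood at 70.7, 81.2, 102 and 103 CPM and Ube2c at 122, 118, 174 and 165 CPM. Without the 3 stretches the median of 44 genes was 0.10 and 3 passed, while 765 of all 10546 genes there were higher. Interferon genes gave a median of -0.21 and 12 lower of 41 without them, ribosomal proteins 0.24 and 11 higher of 69, and collagen chains 0.38 and 7 higher of 13.

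The letters TATAAA, the core of the TATA box, were searched on both strands of the same promoter windows. They were in 28 of 102 higher genes with a RefSeq promoter (27.5%), in 3 of 39 lower genes (7.69%) and in 8.25% of all 9465. Without histone and poorly polyadenylated genes they were in 23 of 95 (24.2%), and among genes under 20 CPM they were in 21 of 83 higher genes (25.3%) against 9.49% of 3004 tested genes. These shares count a match at any position in the window, such as 211 bases before the start in Spp1. As above, a match describes letters and is not evidence of binding. The promoters of 3 higher genes with a match are shown, chosen because each has the letters at the distance from the start where a TATA box lies. They are Mcpt1, the growth factor-binding protein Igfbp4 (3.05 and 9.75 CPM in scratched wild type and knockout) and the calcium-binding protein S100a4 (2.40 and 7.49 CPM). Each line gives the 250 bases before the start as above, with TATAAA in capitals.
Mcpt1: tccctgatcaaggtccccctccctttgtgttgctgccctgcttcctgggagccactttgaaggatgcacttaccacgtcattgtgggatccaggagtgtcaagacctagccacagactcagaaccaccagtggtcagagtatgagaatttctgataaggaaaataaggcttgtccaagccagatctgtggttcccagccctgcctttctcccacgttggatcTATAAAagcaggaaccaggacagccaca
Igfbp4: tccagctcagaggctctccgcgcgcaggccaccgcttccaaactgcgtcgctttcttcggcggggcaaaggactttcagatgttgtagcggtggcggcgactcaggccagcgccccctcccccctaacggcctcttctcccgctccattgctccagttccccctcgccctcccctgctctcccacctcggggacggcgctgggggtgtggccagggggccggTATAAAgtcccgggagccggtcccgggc
S100a4: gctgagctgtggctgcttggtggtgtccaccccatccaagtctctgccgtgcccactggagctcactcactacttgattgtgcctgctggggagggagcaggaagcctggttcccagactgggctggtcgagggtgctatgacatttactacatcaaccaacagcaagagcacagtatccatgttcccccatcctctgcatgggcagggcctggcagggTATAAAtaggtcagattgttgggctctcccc

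They lie at chr14:56017714-56017963, plus strand for Mcpt1, chr11:99040994-99041243, plus strand for Igfbp4 and chr3:90603520-90603769, plus strand for S100a4, with the first letter of the match 28, 28 and 31 bases before the start.

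Few genes had a knockout difference that itself depended on the scratch. The log2 difference after the scratch minus that without it was at least 1 in size, beyond its 95% counting interval, for 62 genes upward (0.511% of those tested) and 20 downward (0.165%). None of the 20 downward genes reached 10 CPM in any library, and 14 of the 62 upward genes did. Of the 62, 20 were ribosomal, mitochondrial ribosomal, small RNA or histone genes.

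The 17 genes in opposite directions were nearly all of that kind, 15 of 17 (0.14% of tested genes in all). The ribosomal RNA gene CT010467.1, named after its values were seen, was at 5725, 1162, 1836 and 6884 CPM, and the 7SK RNA (Rn7sk), which restrains transcription elongation, at 46.8, 12.5, 18.7 and 46.3 CPM. The RNA subunit of RNase P (Rpph1) stood at 18.9, 3.12, 6.52 and 16.1 CPM and that of RNase MRP (Rmrp) at 4.39, 0.466, 1.89 and 4.13 CPM. The linker histone gene H1f4 was at 2.69, 0.609, 0.879 and 2.84 CPM and the core histone gene H4c4 at 2.07, 0.323, 0.473 and 1.61 CPM. In each the wild-type scratched library was the lowest and the knockout scratched and wild-type unscratched libraries the 2 highest. These are the same libraries that held the least and the most ribosomal RNA, and the part of that share in these differences was not tested.

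Other genes with a low level in the wild-type scratched library followed the same order. The mitochondrial leucyl-tRNA synthetase gene Lars2 was at 2558, 1250.1, 1420.0 and 2842 CPM and the miRNA gene Mir6236 at 1599, 759, 880.4 and 1717 CPM. The mitochondrial ribosomal RNAs mt-Rnr1 (382, 145, 219.8 and 381 CPM) and mt-Rnr2 (279, 105, 195 and 292 CPM) and the ribosomal protein gene Rpl23a (10.1, 3.01, 4.77 and 6.72 CPM) did too, and mt-Nd1 stood at 1448, 912, 1086 and 1376 CPM. The 7 tested mitochondrial mRNAs had a median of 0.044 after the scratch and -0.51 without it.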

How the data were processed

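The read counts per gene were made and deposited by the authors, with Trimmomatic 0.39, STAR 2.7.9a and HTSeq 0.11.3 on mm10, per the submitters' processing notes. The RPKM values the authors deposited were used only as an alternative. Which annotation HTSeq counted on, and whether it used strand, is not stated in the sources used here, so overlapping and antisense genes are uncertain. Counts were scaled with TMM factors over the 4 libraries (edgeR 4.0.16, R 4.3.3) to CPM, and log2 differences used a prior count of 2. Exact 95% Clopper-Pearson intervals were taken on the split of counts between 2 libraries. The calling was run on simulated counts that carried counting error only, so that run cannot speak to spread between cultures or libraries. Alternatives changed the scaling, the prior count, the CPM minimum, the interval, the depth, the values used and a GC and length trend. The members and gene lists were chosen with earlier results of these data known. Named were the largest 2-fold differences at 10 CPM or more, up to 4 called members of each list at 5 CPM or more, genes whose difference changed most with the scratch or reversed, the genes around Lingo1 and those nearest 1 CPM. Other named genes, among them plexins, surfactant regulators, near-silent genes and promoter examples, were chosen after their values were seen.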

Additional observations from a re-analysis of the deposited data

Results flagged for a closer look

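The 2 unreplicated pairs moved in opposite directions for 17 genes, each at least 2-fold higher in the knockout after the scratch and at least 2-fold lower without it, and the difference between the pairs was not tested. The log2 difference after the scratch minus that without it was 4.21 for the ribosomal RNA gene CT010467.1, 3.38 for the 5.8S gene n-R5-8s1, 3.20 for Rn7sk, 3.87 for Rpph1, 4.18 for Rmrp and 4.22 for the Y RNA gene Rny3. It was 3.67 for H1f4, 4.15 for H1f5, 4.60 for H4f16, 4.12 for H4c4, 4.79 for H1f3 and 3.74 for H1f1, all replication-dependent histone genes, and 2.22 for the ribosomal protein gene Rpl23a. With the scratched knockout counts thinned to the wild-type depth, Rpl23a stood at log2 0.9956 after the scratch, just short of 2-fold.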

How the results depend on the processing

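No paired analysis was possible because each condition has 1 library and the labels carry no replicate numbers, and for the same reason no library could be left out. Of the main results under the alternatives, 73 values stayed and 14 moved. A count stayed if it lay within 1.5 times of the main count, and a count cannot reverse. A median stayed if it shifted by less than 0.1 in log2, a step larger than the chromosome 16 median itself. None of the chromosome medians changed sign. With a minimum of 5 CPM, 66 genes were at least 2-fold higher and 12 lower, the difference changed with the scratch for 15 genes upward and 0 downward, and 6 were in opposite directions. With no CPM minimum these counts were 385, 150, 139, 36 and 39. With a 99% interval 6 genes changed downward with the scratch. With the authors' RPKM values and the fold minimum alone, 29 genes were lower and 11 in opposite directions. Without poorly polyadenylated and histone genes, an alternative chosen after seeing the data, 2 were in opposite directions. Counts by the 25% rule ran from 581 to 1098 higher and from 478 to 785 lower, and the medians of chromosome 4 from -0.18 to -0.13, of chromosome 16 from -0.098 to -0.079 and of distal chromosome 2 from 0.14 to 0.16. Of the list medians 175 values stayed and 14 moved, with 0 reversed: airway 0.78 to 1.69, mesenchymal 0.22 to 0.73, histones 0.97 to 1.98, and interferon -0.10 at 5 CPM or more. Of the named genes' values 1030 kept their call, 21 were weaker, 2 stronger and 0 reversed. Counting error limits genes near 1 CPM, where 3 counts are 0.0626 to 0.111 CPM.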
